A study of Mus musculus with 16 samples.

Results

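The cytosolic ribosomal proteins were measured here through 48 genes, 26 of the large and 22 of the small subunit, of 12393 genes on the array. A member was a probe set annotated to a single symbol that begins with Rpl or Rps and a digit, or to Rpsa, Rplp0, Rplp1 or Rplp2. Genes of the S6 kinases and pseudogenes were left out. In all 100 probe sets met this rule, and the brightest of each gene by its mean log2 intensity over 16 tumors stood for the gene. Another 102 probe sets carried several symbols, at least 1 of them of a ribosomal protein gene, and were not used as members. Rpl3, Rpl5, Rpl10, Rplp1 and Rps27a had no single-symbol probe set and are not described.

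The tumors came from genetically engineered mice in which 1 copy of p53 carries a missense mutation (p53R172HΔg/+). Another part of their genotype is not reported here, and mice of the full genotype develop lung adenocarcinoma that spreads. There were 9 metastases of 4 male mice. Mouse 1 gave inguinal, liver and subcutaneous/body wall tumors, mouse 2 a liver tumor, mouse 3 heart, mediastinal lymph node and subcutaneous tumors, and mouse 4 mediastinal lymph node and parietal pleura tumors. They were set against the primary lung adenocarcinomas of the same 4 mice, 1 per mouse, and 3 further primary tumors came from mice 5 to 7, of which mouse 6 was female. Both groups shared the same genotype, no age was given in the labels, and the tumors had been dissected free of adjacent tissue. RNA of each tumor was hybridized to a 1-color Affymetrix mouse array, and the values are intensities in arbitrary units that have no common scale between probe sets.

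Cytosolic ribosomes are built from a small subunit, which reads the messenger RNA, and a large subunit, which joins amino acids. Their proteins are needed in equal amounts, and cells make them from some of the most abundant messenger RNAs. Many of these messages begin with a run of pyrimidines, the 5′ terminal oligopyrimidine (TOP) motif, through which the mTOR pathway sets their translation. Synthesis of ribosomes rises in growing cells under Myc. When assembly fails, free Rpl5 and Rpl11 bind Mdm2 and so stabilize p53.

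The start sites of members are shown because a TOP tract is the sequence feature by which these genes are known. A promoter sequence from RefSeq (GRCm38.p6) was matched by symbol for 42 of the 48 members. A tract, defined as C at the annotated start followed by at least 4 pyrimidines (C or T), was found for 8 of the 42 (19.0%), against 3.01% of all 27025 genes with a promoter. The 8 were Rpl14, Rpl35, Rpl38, Rplp2, Rps6, Rps10, Rps18 and Rps27. This rule reads only from the annotated start, so a tract that begins a few bases away was not counted. A member without a tract by this rule can still carry the motif. In the 6 examples below, 20 bases before the annotated start are followed by 15 bases from it on, on the gene's own strand, and the capitals mark the tract.
Rpl35, chr2:39005117-39005151, minus strand: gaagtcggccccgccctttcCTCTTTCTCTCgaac
Rps10, chr17:27635230-27635264, minus strand: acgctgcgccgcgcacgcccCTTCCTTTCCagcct
Rps18, chr17:33955651-33955685, minus strand: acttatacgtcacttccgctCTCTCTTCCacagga
Rps6, chr4:86857353-86857387, minus strand: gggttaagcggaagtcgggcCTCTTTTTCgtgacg
Rpl38, chr11:114668560-114668594, plus strand: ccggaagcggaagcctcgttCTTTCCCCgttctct
Rplp2, chr7:141447631-141447665, plus strand: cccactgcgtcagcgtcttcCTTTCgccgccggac

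Tracts ran from 5 bases in Rplp2 to 11 bases in Rpl35. Within 250 bases before and 50 bases from the annotated start, searched on both strands, CTTTCC occurred in 22 of the 42 members (52.4%) and in 29.3% of all genes. The sequence CACGTG, the E-box to which Myc binds, occurred in 4 members (9.52%) and in 8.09% of all genes. These letters were chosen after the sequences were seen, can overlap the tract, and mark no binding site. The 8 members with a tract had log2 differences between metastases and primary tumors of -0.23 to 0.27 (median 0.04). The 34 with a promoter but no tract at the annotated start had a median of -0.06, and they are not a group known to lack the motif.

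The first comparison asks whether ribosomal protein messages differed between metastases and the primary tumors of the same mice. As a group they were nearly level. The median log2 difference of the 48 genes was -0.06, a ratio of 0.956, against -0.02 for all 22626 probe sets. At an adjusted p under 0.05 (limma with the mouse as a block, Benjamini-Hochberg over all probe sets) 0 members were called, where 0.354% of all probe sets were. In no member (0 of 48) were the intensities of metastases and matched primary tumors free of overlap, as they were in 1.01% of all probe sets. At an unadjusted p under 0.05, 0 members were higher, where 4.28% of all probe sets were, and 2 were lower, where 7.1% were. The smallest adjusted p of a member was 0.39. By sign alone 16 members were higher and 32 lower, and the differences ran from -0.46 for Rps9 to 0.58 for Rpl27a.

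**Figure D1:**
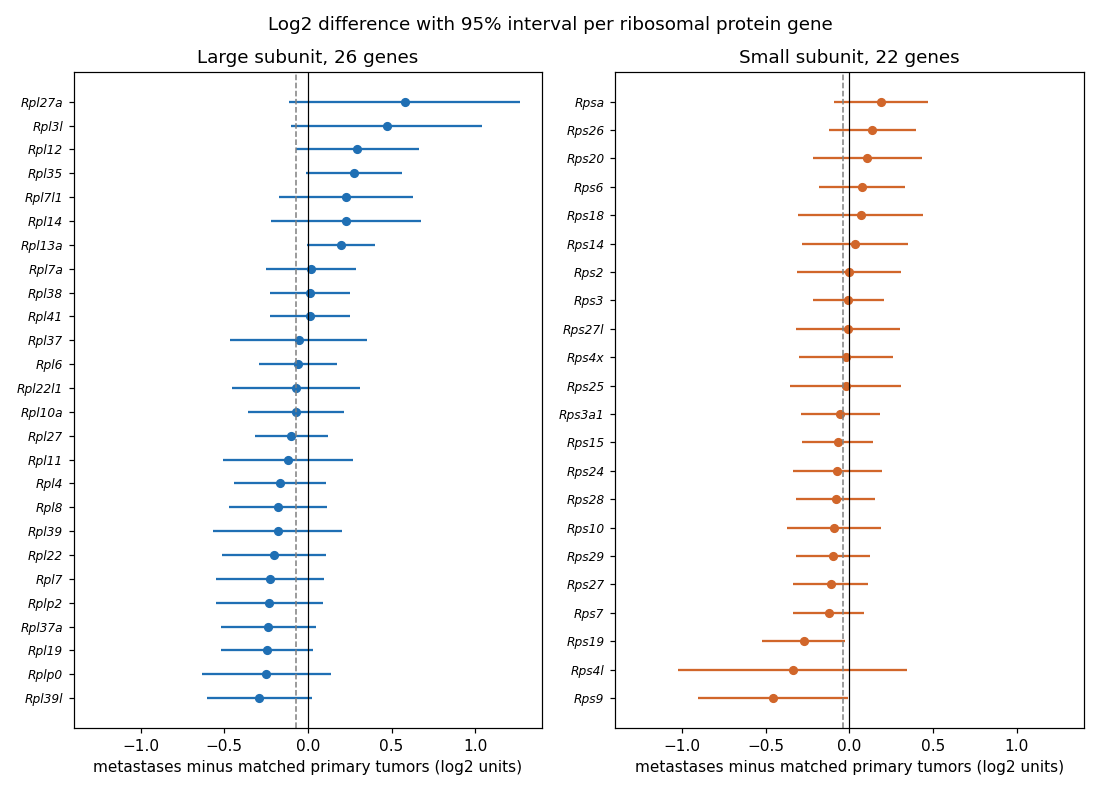
Log2 difference between 9 metastases and the 4 matched primary tumors for each ribosomal protein gene, with its 95% confidence interval from limma; large subunit left, small subunit right, dashed line at the subunit's median. Intervals of Rps9 and Rps19 lie below 0 and no interval lies above it.

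The intervals limit how large a difference could have been missed. For 45 of the 48 members (93.8%) the 95% confidence interval lay within a log2 difference of -1 to 1 and for 30 (62.5%) it lay within -0.5 to 0.5. The same held for 75.2% and 31.4% of all probe sets. Among 412 other probe sets with a mean log2 intensity of at least 10, it held for 85.7% and 37.6%. No member had a difference beyond 1 in size, while 3.04% of all probe sets and 4.37% of the other bright ones did. The median standard error was 0.13 for members, 0.17 for the other bright probe sets and 0.19 for all probe sets.

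The subunits were close to each other. The 26 large subunit genes had a median log2 difference of -0.07 (10 higher, 16 lower) and the 22 small subunit genes one of -0.04 (6 higher, 16 lower). Single genes of the large subunit were more spread out, from -0.29 to 0.58, and 11 of its 26 intervals lay within -0.5 to 0.5, against 19 of the 22 for the small subunit. No test of the difference between subunits was made, since genes of 1 subunit are not replicates.

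Rps19 and Rps9, both small subunit proteins, were the 2 members below an unadjusted p of 0.05. RPS19, in humans a gene whose loss of 1 copy causes Diamond-Blackfan anemia, is needed for maturation of the small subunit RNA. Rps19 had intensities of 1282 to 2478 in metastases (median 1982), against 2665, 2922, 1573 and 2659 in the primary tumors of mice 1 to 4. It was lower in 8 of 9 metastases than in the mouse's own primary tumor, with a log2 difference of -0.27 (SE 0.11, 95% interval -0.52 to -0.02, adjusted p = 0.39). The groups overlapped through the low primary tumor of mouse 3.

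Rps9, a protein at the entry of the messenger RNA channel, had intensities of 1183 to 3051 in metastases (median 1730), against 3161, 2206, 2029 and 2872 in the primary tumors. Its log2 difference was -0.46 (SE 0.20, adjusted p = 0.43). The mouse 4 metastases had the lowest ratios, and the liver metastasis of mouse 2 was the only one above its primary tumor. Both dimmer probe sets of Rps9 gave differences of -0.13 and 0.18.

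Rpl13a and Rpl35 led the members that were higher by sign. Rpl13a, which also takes part in a translational silencing complex in human myeloid cells, had intensities of 3894 to 4792 in metastases (median 4473), against 3562, 4333, 4148 and 3580 in the primary tumors. It was the only member above the primary tumor in all 9 metastases, as were 1.81% of all probe sets, and none was below it in all 9, as were 3.6%. The log2 difference was 0.20 (SE 0.09, adjusted p = 0.45), and the range of the primary tumors overlapped that of the metastases. Other probe sets of Rpl13a did not all share this pattern. Of its other bright ones, 1 was higher in 8 of 9 metastases (0.20) and 1 in 4 of 9 (-0.12). A dim one was higher in 6 of 9 (0.47). A paired t-test of the log ratios, the methods' own test, placed Rpl13a at an adjusted p of 0.0274, where 3.91% of all probe sets passed. Before adjustment that test put 5 members higher at p under 0.05, where 9.2% of all probe sets were, and 8 were lower, where 13.1% were.

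Rpl35, which sits at the exit of the peptide tunnel, had intensities of 2254 to 4277 in metastases (median 3755), against 2721, 2727, 3402 and 2659 in the primary tumors. The parietal pleura tumor of mouse 4 was the lowest of the metastases and the only one below its own primary tumor. The log2 difference was 0.27 (SE 0.13, adjusted p = 0.47). Its 6 probe sets, which differ in type and brightness, gave differences from 0.24 to 0.29.

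Rpl27a and Rpl12 also differed between mice. Rpl27a, a large subunit protein, had intensities of 354 to 1607 in metastases (median 614), against 495, 335, 650 and 439 in the primary tumors. The lymph node and subcutaneous metastases of mouse 3 were the highest metastases, and 7 of 9 were above their primary tumor (log2 difference 0.58, SE 0.31, adjusted p = 0.54). Rpl12, part of the stalk base where elongation factors bind, had intensities of 66.4 to 141 in metastases (median 87.7), against 84.6, 70.8, 90.0 and 67.8 in the primary tumors. All 3 tumors of mouse 1 were above its primary tumor and all 3 of mouse 3 below it (log2 difference over all 0.29, SE 0.16, adjusted p = 0.56).

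The stalk proteins Rplp0 and Rplp2, which recruit elongation factors to the ribosome, were lower by sign. Rplp0 had intensities of 1660 to 3339 in metastases (median 2753), against 3220, 2884, 3045 and 2974 in the primary tumors. The 3 lowest metastases were the mediastinal lymph node tumors of mice 3 and 4 and the parietal pleura tumor, and the difference was -0.25 (SE 0.17, adjusted p = 0.65). Rplp2 had intensities of 1833 to 3656 in metastases (median 2806), against 3045, 3599, 3025 and 3155 in the primary tumors, with a difference of -0.23 (SE 0.14, adjusted p = 0.61). Its 2 lowest metastases were those of mouse 4.

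Rpl37a and Rpl19 also leaned lower. Rpl37a, a zinc-binding protein, had intensities of 3002 to 4917 in metastases (median 4027), against 5504, 5357, 3471 and 5044 in the primary tumors, with a difference of -0.24 (SE 0.13, adjusted p = 0.54). A second bright probe set of Rpl37a gave -0.49 (SE 0.13, adjusted p = 0.16). Rpl19, which helps to bridge the subunits, had intensities of 2270 to 3605 in metastases (median 2642), against 2889, 2709, 3705 and 3409 in the primary tumors. It was lower in 8 of 9 metastases, by -0.24 (SE 0.12, adjusted p = 0.51).

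Members with roles outside the ribosome gave small differences. Rpl11, the Mdm2 inhibitor, had intensities of 1609 to 3358 in metastases (median 2410), against 2331, 2380, 2471 and 3238 in the primary tumors, with a difference of -0.12 (SE 0.17, adjusted p = 0.85). It was above the primary tumor in all 3 tumors of mouse 1 and below it in both of mouse 4. Mdm2 itself differed by -0.15 (SE 0.12). Rpsa, also known as the laminin receptor, had intensities of 3252 to 5652 in metastases (median 4000), against 4318, 2707, 3126 and 3558 in the primary tumors, with a difference of 0.19 (SE 0.13, adjusted p = 0.63). Rps3, which also acts in DNA repair, read 3294 to 4822 in metastases, against 3999 to 4375 in the matched primary tumors, with a difference of -0.01 (95% interval -0.22 to 0.20). Rps6, the substrate of the S6 kinases, was read by a dim probe set at 62.3 to 91.6 in metastases, against 60.6 to 68.6 in the matched primary tumors, with a difference of 0.07 (SE 0.11).

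Paralogs that can replace a standard subunit showed no common direction. Of 6 paralogs, 2 were higher by sign and 4 lower, none at an unadjusted p under 0.05. Rpl39l, the testis-enriched copy of Rpl39, had intensities of 225 to 385 in metastases (median 293), against 341, 360, 368 and 342 in the primary tumors. It was lower in 8 of 9, by -0.29 (SE 0.14, adjusted p = 0.48), while Rpl39 differed by -0.18 (SE 0.17). Rpl22l1 differed by -0.07 (SE 0.17) and Rpl22 by -0.20 (SE 0.14). A dimmer probe set of Rpl22 gave -0.42 (SE 0.16, adjusted p = 0.34). That probe set was lower in 9 of 9 metastases, as were 3.6% of all probe sets. Rps27l differed by -0.01 (SE 0.14) and Rps27 by -0.11 (SE 0.10), and Rps4l by -0.34 (SE 0.31) and Rps4x by -0.02 (SE 0.13). Rps4l read 5.09 to 18.6 in metastases and 15.3 to 20.5 in the matched primary tumors. These values lie below the 25th percentile of all intensities, 24.4. Its lowest log2 ratio, -1.77, was in the mediastinal lymph node tumor of mouse 4. Rpl7l1 differed by 0.23 (SE 0.18) and Rpl7 by -0.22 (SE 0.14). The tumors of mouse 1 were the highest for Rpl7l1, at 258 to 337 against 163 in that mouse's primary tumor.

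Rpl3l, the paralog of Rpl3 made in heart and skeletal muscle, had its highest intensity in the heart metastasis. It read 64.8 there, against 31.5 in the primary tumor of the same mouse, while the other 8 metastases lay between 25.5 and 38.1 and the 7 primary tumors between 16.7 and 42.1. The log2 ratio to the mouse's own primary tumor did not single out the heart. It was 1.04 there, against 1.19 in the subcutaneous/body wall and 1.01 in the liver tumor of mouse 1. Of the 9 metastases, 6 were above their primary tumor and 3 below. The probe set is dim, and the 25th percentile of all intensities was 24.4. The difference over all metastases was 0.47 (SE 0.26, adjusted p = 0.55). The summed intensity of 20 heart and skeletal muscle genes was 5096 in the heart metastasis, at most 2537 in the other metastases and 1050 to 1495 in the matched primary tumors. The part of muscle tissue in the Rpl3l value was not tested.

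Each metastasis was then set against its own primary tumor. The median log2 ratio of the 48 members was 0.03 in the inguinal, -0.03 in the liver and 0.12 in the subcutaneous/body wall tumor of mouse 1, and 0.01 in the liver tumor of mouse 2. In mouse 3 it was -0.03 in the heart, -0.18 in the mediastinal lymph node and -0.06 in the subcutaneous tumor. In mouse 4 it was -0.17 in the mediastinal lymph node and -0.24 in the parietal pleura tumor. The pleural tumor was the most one-sided, with 8 of 48 members higher and 40 lower, and the inguinal tumor had the most members higher, 28 of 48.

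Other bright messages moved in the same tumors. For 412 other probe sets with a mean log2 intensity of at least 10, the median ratio was -0.23 in the parietal pleura tumor, -0.12 in the lymph node tumor of mouse 4 and -0.15 in that of mouse 3. In the inguinal tumor it was 0.25, above the 0.03 of the members. The part of array brightness or scaling in the member medians was not tested.

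**Figure D2:**
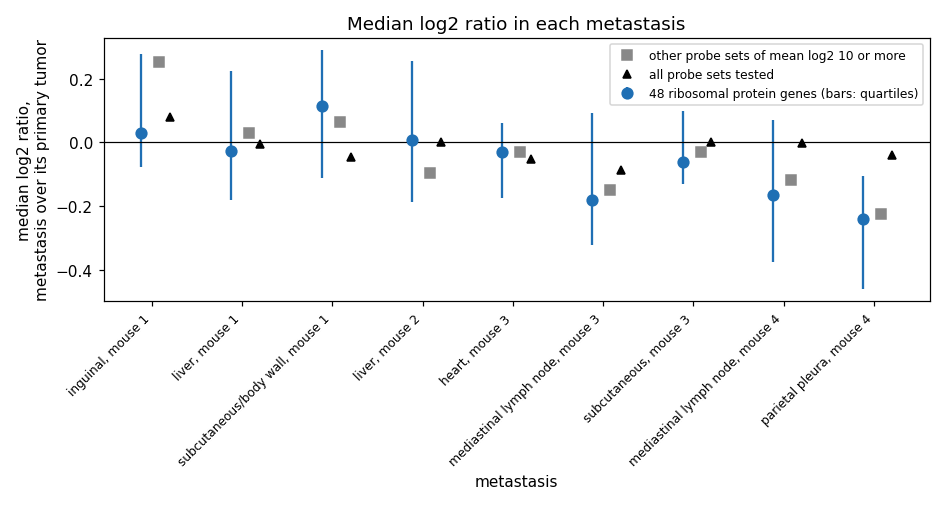
Median log2 ratio of each metastasis over its own primary tumor for the 48 ribosomal protein genes (circles, bars from the lower to the upper quartile), 412 other bright probe sets (squares) and all probe sets (triangles). Circles run from -0.24 in the parietal pleura tumor to 0.12 in the subcutaneous/body wall tumor, and the squares are lowest in the same pleural tumor.

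Large and small subunit medians kept close within each metastasis. The large subunit median minus the small subunit median was 0.18 in the inguinal tumor, where the large subunit had 0.19 and the small subunit 0.01. It was -0.09 in the subcutaneous/body wall tumor and between -0.06 and 0.07 in the other 7. In the lymph node tumors both subunits had about the same median, -0.18 and -0.18 in mouse 3 and -0.17 and -0.17 in mouse 4.

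**Figure D3:**
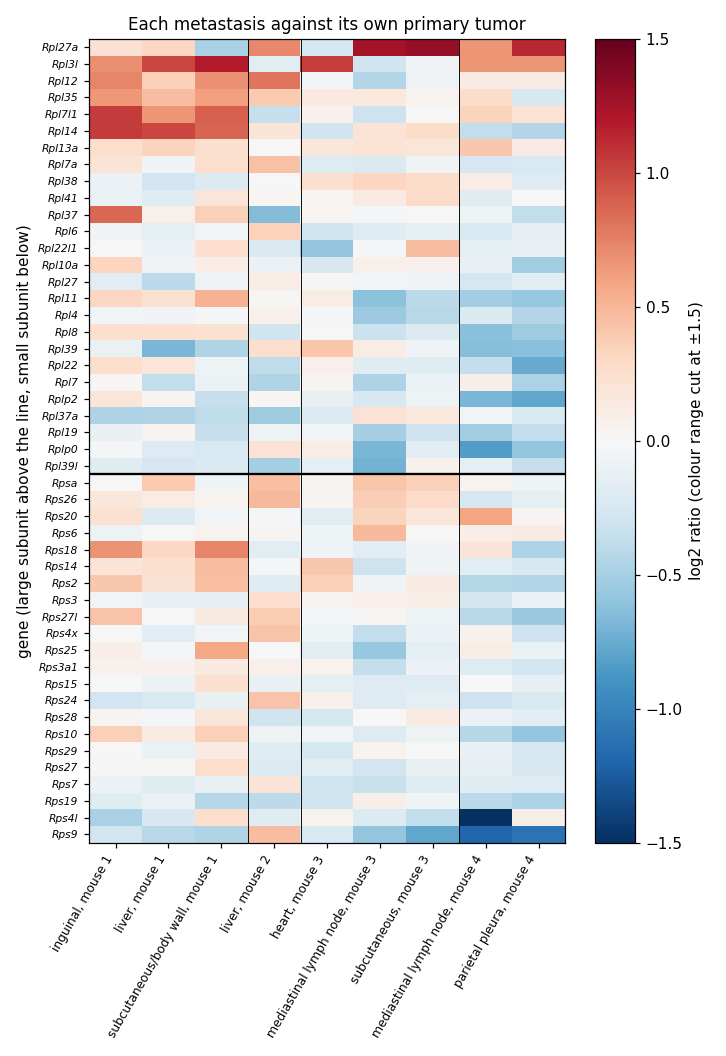
Log2 ratio of each metastasis over its own primary tumor (columns, grouped by mouse) for every member (rows, large subunit above the line), red higher and blue lower in the metastasis. Rpl14 and Rpl7l1 are red in mouse 1, Rpl27a is red in 7 of 9 columns, and Rps9 is blue in 8 of 9 columns.

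Several members went in opposite directions in different mice. Between mouse 1, with 3 metastases, and mouse 4, with 2, 11 members (22.9%) were higher in every metastasis of mouse 1 and lower in every one of mouse 4, and 0 members did the reverse. The shares were 10.7% and, for the reverse, 8.33% over all probe sets, and 16.3% and 3.16% over the other bright ones. Between mice 1 and 3 there were 4 members of the first kind (8.33%) and 2 of the reverse (4.17%). The shares there were 5.71% and 3.51% over all probe sets, and 9.22% and 1.21% over the other bright ones. Between mice 3 and 4 there were 3 members (6.25%) and, for the reverse, 1 (2.08%). The shares there were 4.43% and 5.54% over all probe sets, and 3.88% and 2.91% over the other bright ones. Rpl14, read by a dim probe set (mean log2 intensity 5.29), was an example. It read 69.5 to 78.9 in the metastases of mouse 1, against 38.1 in that primary tumor, and 24.1 and 25.4 in those of mouse 4, against 32.7 in that primary tumor. The mouse 4 values of Rpl14 lay near the 25th percentile of all intensities, 24.4. The differences between mice were not tested, since each mouse has a single primary tumor.

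With all 16 tumors, and the mouse as a random block, the group stayed level. The median difference was 0.03 (large subunit 0.04, small subunit 0.01), against 0.01 for all probe sets, and 0 members were below an adjusted p of 0.05, where 1.24% of all were. At an unadjusted p under 0.05, 2 members were higher (Rpl12 and Rpl35), where 5.93% of all were, and 3 were lower (Rpl39l, Rpl37a and Rps19), where 6.46% were. The median turned from below to above 0 with the primary tumors of mice 5 to 7 added.

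Those 3 primary tumors had lower values of many members than the primary tumors of mice 1 to 4. Mice 5 to 7 lay wholly below mice 1 to 4 for 15 of the 48 members (31.2%), where 12.9% of all probe sets and 23.3% of the other bright ones did, and wholly above for 2, where 7.12% of all did. Of the 15, 11 belonged to the large and 4 to the small subunit. Rplp0 read 1511, 1445 and 1844 in mice 5 to 7, against 2884 to 3220 in mice 1 to 4, and Rpl11 read 1545, 1061 and 1456 in mice 5 to 7, against 2331 to 3238 in mice 1 to 4. Rpl27a went the other way, with 1110, 1993 and 1082 in mice 5 to 7, against 335 to 650 in mice 1 to 4. This split was looked at after the values were seen, no test was made, and the mouse and the profiling of metastases cannot be told apart. Mice 5 and 7, like mice 1 to 4, were male.

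**Figure D4:**
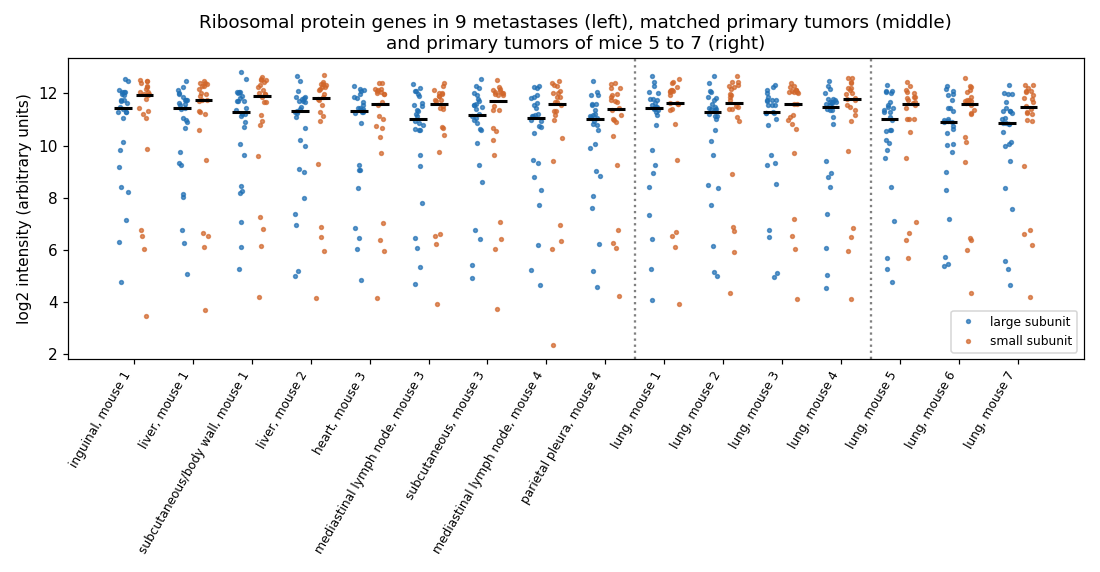
Log2 intensity of the 48 members in each tumor, large subunit left and small subunit right in each column, black bars at the medians; metastases left, matched primary tumors middle, primary tumors of mice 5 to 7 right. Columns are to be compared within a subunit, since probe sets have no common scale, and the member median lies between 11.1 and 11.7 in all 16 tumors.

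Levels of the bright members varied little between tumors. The median SD of log2 intensity over the 16 tumors was 0.26 for members, 0.38 for the other bright probe sets and 0.42 for all probe sets. Among members it was 0.26 for the 35 with a mean log2 intensity of at least 10 and 0.43 for the 13 dimmer ones. Rps28, Rpl41 and Rps29 had the brightest probe sets, and Rps29 ranged from 4059 to 5907 in metastases, against 4858 to 6218 in the matched primary tumors, with a difference of -0.10 (SE 0.10). Rps28 differed by -0.08 (SE 0.11) and Rpl41 by 0.01 (SE 0.11). The dimmest were Rps4l, Rpl3l and Rpl14. In total 13 members, among them Rps6, Rps25, Rps27, Rpl12 and Rpl14, had a mean log2 intensity under 10, and their median difference was -0.01, against -0.07 for the 35 brighter ones.

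Probe sets of the same gene did not always agree. Names of Affymetrix probe sets end in _at where the probes match a single transcript, in _a_at where they match several transcripts of 1 gene, and in _x_at where some probes can also match other sequences, such as the many ribosomal protein pseudogenes. Among member probe sets with a mean log2 intensity of at least 10, the 32 ending in _x_at had a median difference of 0.03 (20 higher, 12 lower), the 23 ending in _a_at one of -0.09 (5 higher, 18 lower) and the 7 ending in _at one of -0.18 (1 higher, 6 lower). Other bright probe sets had medians of 0.06, -0.05 and -0.10 for the same endings. In the lymph node tumor of mouse 4 the member medians were 0.06, -0.28 and -0.36. Rps10, whose bright probe sets spread most of any gene, had -0.09, -0.03 and -0.10 for _a_at probe sets and 0.13 and 0.46 for _x_at ones. Bright probe sets of Rpl13a split the same way (-0.12 for _a_at, 0.20 for both _x_at). Not every gene did. Those of Rps18 gave -0.11 for _a_at and 0.07 and -0.11 for _x_at. Those of Rpl35 gave 0.24 for _a_at and 0.24 to 0.29 for _x_at. The part of matching to other sequences was not tested.

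**Figure D5:**
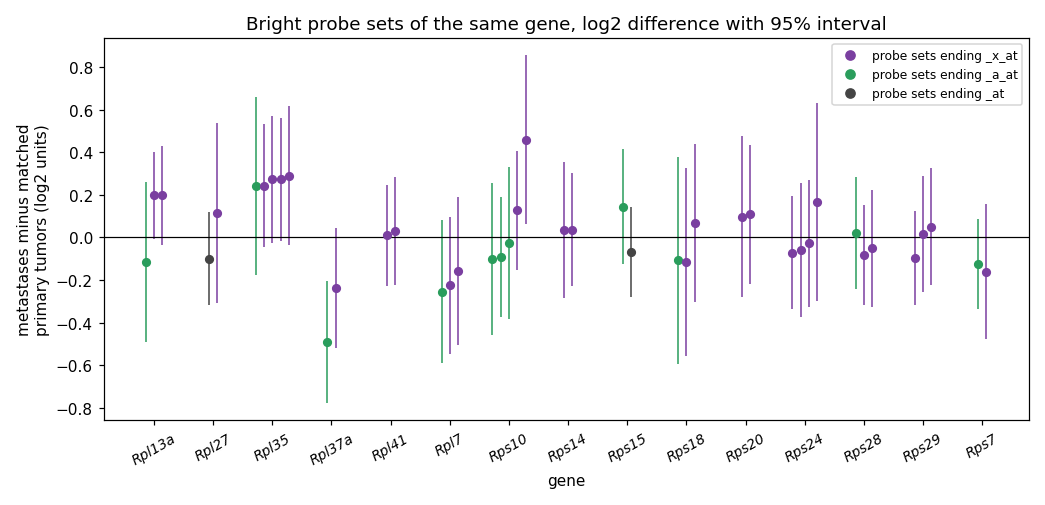
Log2 difference between metastases and matched primary tumors, with its 95% confidence interval, for each probe set with a mean log2 intensity of at least 10, in genes that have several; colors give the ending of the probe set's name. The probe sets of Rpl35 lie together at 0.24 to 0.29, and those of Rps10 spread from -0.10 to 0.46.

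Other genes of protein synthesis were described by list. Of 17 elongation factors and other TOP genes, 5 were higher and 12 lower by sign (median -0.14). At an unadjusted p under 0.05, where 7.1% of all probe sets were lower, 1 was lower. This was Pabpc1, the poly(A)-binding protein, at 2617 to 4572 in metastases, against 3257 to 4780 in the matched primary tumors. It was lower in 9 of 9 metastases, by -0.31 (SE 0.09, adjusted p = 0.22). The initiation factor subunit Eif3f differed by -0.47 (SE 0.21) and Tpt1 by -0.20 (SE 0.10). Of 31 initiation factors, 16 were higher by sign (median 0.00). Eif1ax, which helps to select the start codon, was higher in 9 of 9 metastases, by 0.41 (SE 0.10, adjusted p = 0.15), and Eif4h, a helper of the eIF4A helicase, differed by -0.38 (SE 0.16, adjusted p = 0.40).

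Of 73 ribosome assembly genes, 51 were higher by sign in metastases (median 0.09). At an unadjusted p under 0.05, 7 were higher and 0 lower, where 4.28% and 7.1% of all probe sets were, and 0 were called at an adjusted p of 0.05. Their median ratio was 0.12 to 0.43 in the tumors of mouse 1 and 0.21 in the tumor of mouse 2. It was 0.09, -0.13 and -0.01 in the heart, lymph node and subcutaneous tumors of mouse 3. In mouse 4 the lymph node tumor had -0.08 and the parietal pleura tumor -0.10, below 0 as for the ribosomal proteins. Nop56, a core protein of the particles that methylate ribosomal RNA, averaged 289 ± 190.1 (SD) in the 9 metastases and 129.9 ± 48.6 (SD) in the 4 matched primary tumors. It was higher in 7 of 9 metastases (log2 difference 0.88, SE 0.33, adjusted p = 0.34). Gnl3, the nucleolar protein nucleostemin, differed by 0.47 (SE 0.18) and Noc2l by 0.47 (SE 0.18). Of 74 mitochondrial ribosomal proteins, 48 were higher by sign (median 0.07) and 4 at an unadjusted p under 0.05, a share near that of all probe sets, led by Mrps30 at 0.51 (SE 0.15, adjusted p = 0.22).

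Among 18 regulators of ribosome production, 2 were higher at an unadjusted p under 0.05, where 4.28% of all probe sets were. None was lower, where 7.1% were. Mycn, a Myc family activator, read 213 to 2337 in metastases, against 182 to 591 in the matched primary tumors (difference 0.67, SE 0.29, adjusted p = 0.41). Mxd1, a Myc antagonist, differed by 0.36 (SE 0.16). Myc differed by 0.10 (SE 0.16), with 149 to 322 in metastases, against 182 to 235 in the matched primary tumors. For scale on the same arrays, 27 of 35 mitotic genes were higher at an unadjusted p under 0.05, where 4.28% of all probe sets were. Their median difference was 0.81, and 0 were called at an adjusted p under 0.05, where 0.354% of all were.

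Markers of some cell types moved with the same comparison. All 6 club cell and all 11 alveolar type 2 cell genes were lower by sign in metastases, with medians of -1.94 and -2.27. At an adjusted p under 0.05, 2 club cell genes were called, where 0.354% of all probe sets were. Medians were smaller for T and B lymphocyte (0.11), macrophage (-0.10), endothelial (-0.32), heart and skeletal muscle (0.28) and liver cell genes (0.32). Summed liver cell genes read 760 to 11559 in metastases, against 1391 to 2033 in the matched primary tumors. In whole tumors, fewer cells of a type and less RNA per cell cannot be told apart. The part of cell composition in the member values was not tested.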

How the data were processed

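RNA of 16 tumors was hybridized to Affymetrix Mouse 430A 2.0 arrays. Part of the genotype of the mice is not reported here. The authors deposited linear intensity values per probe set, which dChip had modeled from differences of perfect match and mismatch probes after normalizing arrays to an invariant set of probes. Intensities were raised to a floor of 1, which changed 3.71% of the values, and log2 was taken, with no further normalization. Control probe sets were left out, which left 22626. Probe sets were named through GEO's platform annotation, where 20380 had 1 symbol, 691 several and 1555 none.

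The comparison was fitted in limma 3.58.1 (R 4.3.3) on 13 tumors with the mouse as a fixed block (8 residual degrees of freedom). The 16-tumor fit had the mouse as a random block (correlation 0.238). P values were adjusted by Benjamini-Hochberg over all probe sets and are two-sided. The pairing comes from the study: metastases and primary tumor of a mouse share the animal. In deviations from the group means, 6 of 9 metastases correlated best with their own primary tumor (r from -0.00 to 0.40). Ratios within a mouse are not independent, since they have the same primary tumor as reference. The fit was tested on simulated data. Depth does not apply to arrays, and their number limits the precision.

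Genes named in the text were the 6 higher and 6 lower members of smallest p, paralog pairs, well-known members, the 3 brightest and 3 dimmest, and those whose probe sets differed most; from other lists, up to 3 genes per direction of smallest p, plus Myc and Mdm2. Rps10, outside these rules, had the widest spread among the bright probe sets of a gene. Members and lists were chosen with earlier results of these data known. Promoters and their coordinates are from RefSeq (GRCm38.p6).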

Additional observations from a re-analysis of the deposited data

Results flagged for a closer look

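Among 70 groups of tumors examined for the named members, 9 held a tumor whose gap to the nearest other tumor was large for the range of its group. For independent tumors chance gives about 1 in 20. Metastases of 1 mouse are not independent, and all genes were read on the same arrays. The named members were partly picked for small p, dimness or differing probe sets. No share over all probe sets is given, so the count of 9 is not a result about the members. In metastases, the log2 intensity of Rpl35 was low in the parietal pleura tumor of mouse 4 (11.14) and that of Rps4l low in the mediastinal lymph node tumor of mouse 4 (2.35). Rpl3l was high in the heart tumor of mouse 3 (6.02), Rps24 in the liver tumor of mouse 2 (12.70), Rps6 in the mediastinal lymph node tumor of mouse 3 (6.52) and Rpsa in the liver tumor of mouse 1 (12.46). In primary tumors, Rps24 was low in mouse 6 (11.71), Rps3 low in mouse 5 (11.76) and Rps4l high in mouse 5 (5.67).

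The 31 named members were also compared between mice with several metastases. In 11 cases among them every metastasis of 1 mouse was above its primary tumor and every metastasis of another below it. None of these differences was tested, and the shares of all probe sets with such opposite directions are given above. The values are the mean log2 ratio of the first mouse minus that of the second. Between mice 1 and 4 they were 0.90 for Rpl11, 1.38 for Rpl14, 0.30 for Rps27 and 0.67 for Rps27l. Between mice 1 and 3 they were 0.78 for Rpl12, 0.67 for Rps18, 0.29 for Rps27 and -0.16 for Rps3. Between mice 3 and 4 they were -0.31 for Rpl12, 0.23 for Rpl41 and 0.26 for Rps3.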

How the results depend on the processing

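No member passed an adjusted p of 0.05 under any alternative but the methods' paired t-test of 9 ratios, where 1 (Rpl13a) did; that test also gave 5 members higher and 8 lower at an unadjusted p under 0.05. Against 0 higher and 2 lower in the limma fit, 2 were higher with floors at the 10th or 25th percentile, with quantile normalization, with arrays centered on their medians and with all 16 tumors. With the mouse as a random block, 1 mean ratio per mouse or the mean of a gene's probe sets, 1 was higher, and with probe sets of several symbols (chosen after seeing the data) 3 were. None was lower (0) with quantile normalization, centered arrays, 1 mean ratio per mouse or only plain _at probe sets, and 1 was with a random block. Without the replicate block for mouse pairing, 0 were higher and 0 lower, and the median difference stayed at -0.06. Leaving out 1 metastasis or 1 mouse gave 0 to 2 members higher and 0 to 3 lower, with 0 lower without either mouse 4 metastasis, without mouse 4 or without the subcutaneous/body wall tumor; the member median then ran from -0.12 without mouse 1 to 0.00 without mouse 4. The large subunit median was 0.044 with 16 tumors and 0.23 with plain _at probe sets, and the median of all member probe sets ending in _at (chosen after seeing the data) was 0.069. With quantile normalization the member median was 0.02. The cause of these shifts was not tested. Of 31 named members, 16 kept 1 sign in every setting and 15 changed it in at least 1. Leaving out dim probe sets kept 44 of the 48 members.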
